A study of Caenorhabditis elegans with 11 samples.

Results

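The genes described here are the neuropeptide and insulin-like peptide genes of Caenorhabditis elegans. They were chosen by name, as the genes measured by a single-gene probe set whose symbol starts with flp-, nlp- or ins-, together with daf-28. There are 148 of them among the 26761 tested probe sets, each with 1 probe set: 31 flp genes, 77 nlp genes and 40 insulin-like genes. The rule itself works on gene names and not on measured values.

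The flp genes encode FMRFamide-like peptides, the nlp genes other neuropeptide-like peptides, and the ins genes and daf-28 encode insulin-like peptides. Neuropeptides are cut from longer precursors, amidated, packed into dense-core vesicles and released to act mostly on G protein-coupled receptors, through which they set locomotion, feeding, egg laying and sleep. Insulin-like peptides act on a common receptor, DAF-2, some as agonists and some as antagonists, and so bear on growth, dauer arrest, stress resistance and lifespan. A group of nlp genes is expressed in the epidermis and encodes antimicrobial peptides.

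RNA came from whole worms of the strain JK1466, which carries gld-1(q485) over a chromosome with dpy-5(e61) and unc-13(e51). Loss of gld-1 gives germline tumours, and every group, the controls included, was also fed Escherichia coli HT115 that knock down gld-1 by RNAi. The animals were L4 larvae or young adults that had received water, tryptophan-betaxanthin, tryptophan methyl ester-betaxanthin (the methyl ester) or tryptophan benzyl ester-betaxanthin (the benzyl ester) in liquid medium, each compound at 25 µM for 48 h at 20 °C, started 16 to 18 h after hatching by the sample labels, while the methods give a start at the L1 larval stage. The compounds differ in the group on the carboxyl of tryptophan, which is free in the parent and esterified in the other pair. There were 3 arrays per compound, from trials 1, 2 and 3, and 2 for the control, from trials 1 and 2. The labels call the trials independent, and the third-trial control was not analysed here.

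All values are log2 signals summarised by RMA, and differences are differences of log2 group means, so that 1 unit is a doubling. Array medians lay between 2.18 and 2.24, the lowest correlation between arrays was 0.96, and gld-1 itself read 5.5 to 7.45. Expression from the germline and somatic tissues is mixed in a whole animal, so fewer cells of a type and less RNA per cell cannot be told apart. Oocyte genes were lower with the esters: their summed linear signal was 1788 to 1845 in the control arrays, 1707 to 2174 with tryptophan-betaxanthin, 551.8 to 1417 after methyl ester and 566.2 to 1154 after benzyl ester treatment. Moulting genes ran the other way, from 935 to 950.3 in the controls and 1211 to 1494 with tryptophan-betaxanthin to 1503 to 2995 and 1252 to 2743 with the esters. The lowest oocyte and the highest moulting value of each ester is its third-trial array. The part of these tissue and stage differences in the results below was not tested.

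Of the 148 genes, 110 (74.3%) had a mean signal above the median of all tested probe sets, 2.28, which by construction lies above 50% of them. Signals at or below it may be close to background, whose level was not measured. The families differed, with 30 of 31 flp genes, 63 of 77 nlp genes and 17 of 40 insulin-like genes above that median. Probe sets hybridise with different strengths, so these signals do not rank the genes by transcript amount. Among the genes with strong signals were flp-15, flp-22, flp-20, nlp-24, nlp-28 and nlp-36, and among the insulin-like genes ins-11, ins-17 and ins-7. The agonist genes daf-28, ins-4 and ins-6 had mean control signals of 3.36, 2.05 and 2.12. Many of the genes lie side by side: 44 of them form 13 runs with at most 1 other protein-coding gene between neighbours in the RefSeq annotation, among them ins-12 with ins-11, ins-8 with ins-7, and the antimicrobial genes nlp-34, nlp-31, nlp-30, nlp-29, nlp-28 and nlp-27. Whether probes of such related genes cross-hybridise was not tested.

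The esters were first compared with their parent compound, at the same dose and time, which asks what esterification of the tryptophan changes. Peptide genes were more often higher than lower with either ester. By limma with Benjamini-Hochberg adjustment over all tested probe sets, 4 of the 148 were past an adjusted p of 0.05 for the methyl ester and 8 for the benzyl ester, all of them higher. Over all tested probe sets, 1.37% passed in the first comparison (0.93% higher, 0.437% lower) and 3.09% in the second (2.1% higher, 0.998% lower). At an unadjusted p under 0.05, 55 peptide genes were higher and 2 lower with the methyl ester, where 10.3% of all probe sets were higher and 9.91% lower. For the benzyl ester the counts were 45 higher and 2 lower, where 11.2% and 8.92% of all were. The median difference of the 148 genes was 0.26 for the methyl and 0.27 for the benzyl ester, beside 0.00 and -0.01 over all tested probe sets. The 3 methyl ester arrays lay above the 3 parent arrays in 59 genes (39.9%, against 13.5% of all tested) and below them in 4, and the benzyl ester arrays above in 50 (33.8%, against 13.4%) and below in 2, where 12.9% and 11.1% of all tested lay below. The shares of all tested probe sets were not matched for signal: 74.3% of the peptide genes and 50% of all tested lay above the median signal. These comparisons share the tryptophan-betaxanthin arrays.

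**Figure D1:**
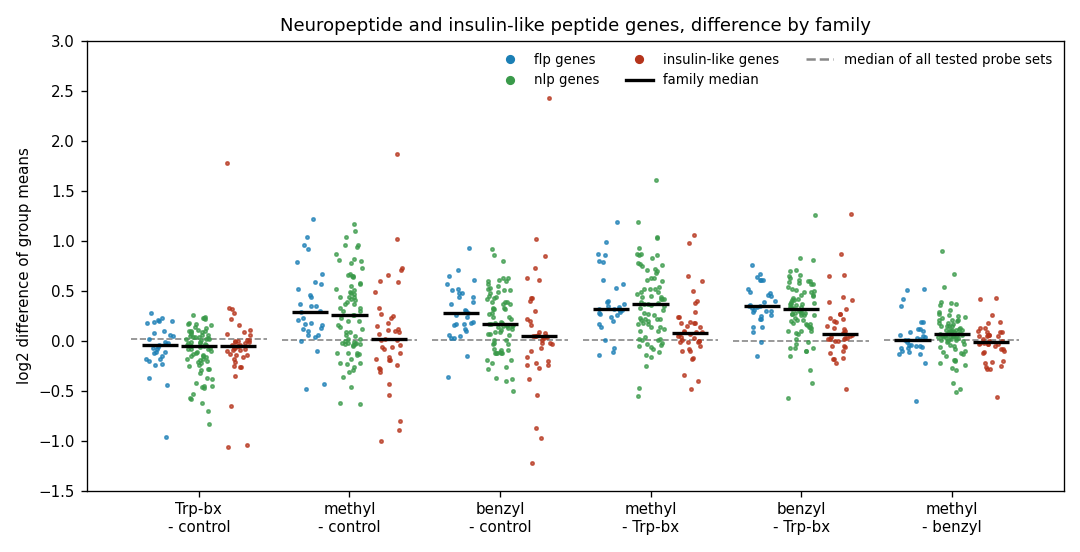
Log2 differences of group means (vertical axis) in 6 comparisons for each flp (blue), nlp (green) and insulin-like (red) gene, 1 point per gene. Black bars are family medians and dashed lines the medians of all tested probe sets. The flp and nlp medians lie between 0.31 and 0.37 for the esters against tryptophan-betaxanthin, while the insulin-like medians are 0.08 and 0.06.

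The shift was in the neuropeptide families more than in the insulin-like one. With the methyl ester, 15 of 31 flp genes and 35 of 77 nlp genes were higher at an unadjusted p under 0.05 and none lower, with medians of 0.32 and 0.37. Of the 40 insulin-like genes, 5 were higher and 2 lower, with a median of 0.08. For the benzyl ester 14 flp, 28 nlp and 3 insulin-like genes were higher and 0, 1 and 1 lower, with medians of 0.34, 0.31 and 0.06. No test of the difference between families was made, and the insulin-like family holds most of the genes with dim probe sets.

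The flp genes past the adjusted threshold were flp-6, flp-9 and flp-10. The signal of flp-6 was 7.31 and 7.29 in the controls, 6.91, 6.97 and 6.69 with tryptophan-betaxanthin, 7.41, 7.26 and 7.71 with the methyl ester, and 7.45, 7.44 and 7.49 in the benzyl ester arrays. All parent arrays lay below all others. The difference from tryptophan-betaxanthin was 0.61 in the methyl ester arrays (standard error 0.12, limma adjusted p = 0.0473) and 0.60 for the benzyl ester (standard error 0.12, limma adjusted p = 0.0344), each a fold of 1.52. The gene flp-10 encodes a ligand of EGL-6, a receptor that inhibits egg laying. It read 7.15, 7.08 and 7.17 with the parent and 7.50, 7.50 and 7.44 with the benzyl ester, groups that do not overlap, a difference of 0.35 (standard error 0.08, limma adjusted p = 0.045). The gene flp-9 read 6.92, 6.74 and 6.77 with the parent and 7.21, 7.62 and 7.51 with the benzyl ester, a difference of 0.64 (standard error 0.14, limma adjusted p = 0.0456). With the methyl ester flp-9 and flp-10 were 0.57 and 0.30 above the parent and did not pass (limma adjusted p = 0.0733 and 0.0768).

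Among the nlp genes, nlp-46 passed with either ester. Its signal was 3.06, 3.04 and 2.90 with tryptophan-betaxanthin, 3.90, 3.61 and 4.06 with the methyl ester and 3.43, 3.78 and 3.73 in the benzyl ester arrays, beside 3.30 and 3.63 in the controls. The parent arrays were the lowest of all. The differences were 0.86 (standard error 0.15, limma adjusted p = 0.0314) and 0.65 (standard error 0.15, limma adjusted p = 0.0481). In nlp-10 the parent arrays read 6.14, 5.93 and 6.42 and the methyl ester arrays 6.86, 6.76 and 7.34, a difference of 0.82 (standard error 0.16, limma adjusted p = 0.0469). In nlp-79 the parent arrays read 5.90, 5.74 and 5.86 and the benzyl ester arrays 6.35, 6.36 and 6.57, a difference of 0.60 (standard error 0.12, limma adjusted p = 0.0326). Neither pair of groups overlaps.

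**Figure D2:**
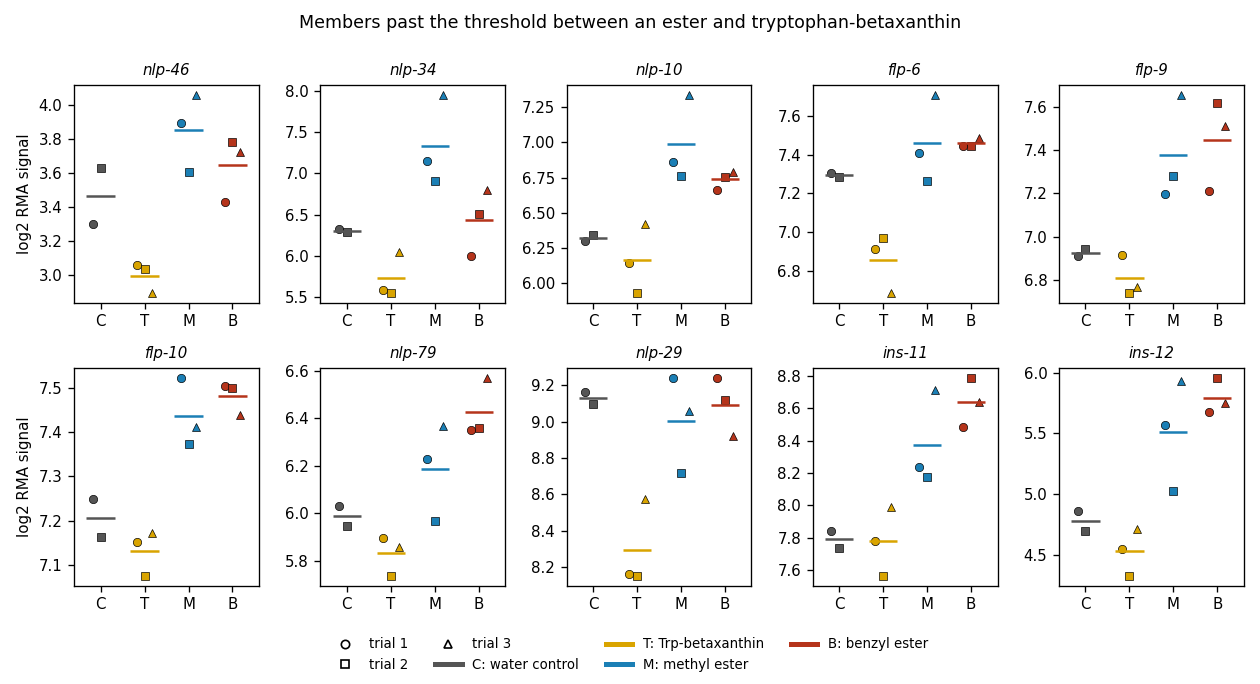
Log2 RMA signal per array (vertical axes, a separate scale in each panel) of the 10 peptide genes past the adjusted threshold between an ester and tryptophan-betaxanthin. C, T, M and B are the control, tryptophan-betaxanthin, the methyl ester and the benzyl ester, symbols mark the trial and bars the group means. In flp-6 and nlp-46 all 3 T arrays lie below all others.

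The epidermal antimicrobial genes nlp-29 and nlp-34 were past the threshold with 1 ester each. The gene nlp-29, which epidermal cells induce on fungal infection and wounding, read 9.16 and 9.10 in the controls, 8.16, 8.15 and 8.57 with tryptophan-betaxanthin, 9.24, 8.72 and 9.06 with the methyl ester and 9.24, 9.12 and 8.92 in the benzyl ester arrays. The parent arrays were the lowest and the ester arrays lay near the controls. The benzyl ester was 0.80 above the parent (standard error 0.16, limma adjusted p = 0.0344) and the methyl ester 0.71 (limma adjusted p = 0.0624). The gene nlp-34 read 6.32 and 6.29 in the controls, 5.58, 5.55 and 6.05 with the parent, 7.15, 6.91 and 7.95 with the methyl ester and 6.002, 6.51 and 6.80 in the benzyl ester arrays. Here the methyl ester arrays stood above all others, 1.61 above the parent (standard error 0.28, a fold of 3.05, limma adjusted p = 0.0351), while the benzyl ester, which overlaps the parent, was 0.71 above it (limma adjusted p = 0.195).

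Neighbours of nlp-29 and nlp-34 on chromosome V did not all have the same pattern. In nlp-31 all parent arrays lay below both controls, a difference of -0.42 (limma adjusted p = 0.775). All benzyl ester arrays of nlp-31 lay above the parent arrays, while the methyl ester arrays overlapped them. In nlp-30 the parent arrays read 9.19, 9.15 and 9.23 and all 6 ester arrays lay between 9.44 and 9.73, with differences of 0.41 and 0.39 that did not pass (limma adjusted p = 0.0598 and 0.0537). In nlp-28 the parent arrays read 9.74, 9.76 and 9.76. The third-trial ester arrays lay below them, at 9.70 (methyl) and 9.54 (benzyl). Their shifts from the mean of the first and second trials were -0.41 and -0.55. Against the control, nlp-28 differed by -0.54 (parent), -0.32 (methyl) and -0.38 (benzyl), with limma adjusted p = 0.74, 0.458 and 0.398. The ester means of nlp-28 thus lay above the parent mean. The dim nlp-27 differed from the parent by -0.09 and 0.06. Over the 11 antimicrobial nlp genes, 5 were higher and 0 lower at an unadjusted p under 0.05 in the methyl ester comparison, 4 and 0 in the benzyl ester comparison, and the medians were 0.22 and 0.17. Of all tested probe sets, 10.3% and 11.2% were higher at that level. The caenacins are a related family of epidermal antimicrobial peptides. Against the parent, cnc-4 was higher with either ester, by 0.76 and 0.84 (limma adjusted p = 0.0266 and 0.0176). In the methyl ester arrays cnc-2 was higher than with the parent by 0.71 (limma adjusted p = 0.0361). Of the 11 caenacin genes, 6 were higher and 0 lower at an unadjusted p under 0.05 with either ester. Their mean log2 signal was 4.598 to 4.619 in the controls and 4.27 to 4.453 with the parent. It was 4.542 to 4.785 with the methyl ester and 4.503 to 4.877 with the benzyl ester. The parent arrays were thus the lowest, and both esters overlapped the controls.

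**Figure D3:**
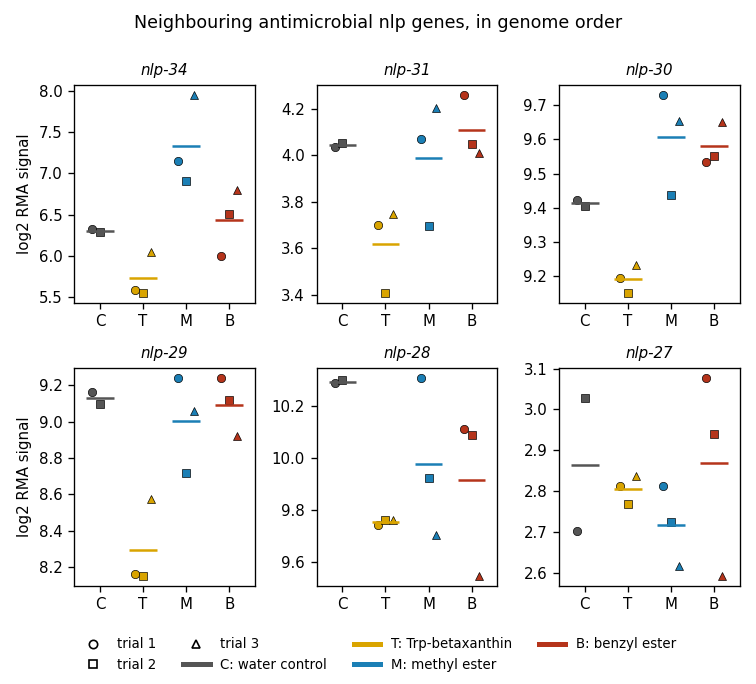
Log2 RMA signal per array (vertical axes, a separate scale in each panel) of 6 neighbouring antimicrobial nlp genes, laid out in genome order. Groups are as C (control), T (tryptophan-betaxanthin), M (methyl ester) and B (benzyl ester), with bars at group means and symbols for trials. In nlp-29 and nlp-30 the T arrays lie below all others, and in nlp-27 the groups overlap.

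Of the insulin-like genes, the neighbours ins-11 and ins-12 passed with the benzyl ester. The gene ins-11 encodes an intestinal peptide that takes part in the response to pathogenic bacteria. It read 7.84 and 7.74 in the controls, 7.78, 7.56 and 7.99 with tryptophan-betaxanthin, 8.24, 8.17 and 8.71 with the methyl ester and 8.48, 8.79 and 8.64 in the benzyl ester arrays. The gene ins-12 read 4.87 and 4.70, then 4.55, 4.33 and 4.71, then 5.57, 5.02 and 5.93, and 5.67, 5.96 and 5.75 in the same order of groups. In either gene all 6 ester arrays lay above all 5 other arrays. The benzyl ester was 0.86 above the parent in ins-11 (standard error 0.16, a fold of 1.82, limma adjusted p = 0.0307) and 1.26 in ins-12 (standard error 0.21, a fold of 2.40, limma adjusted p = 0.0243). The methyl ester was 0.60 and 0.98 above it (limma adjusted p = 0.0872 and 0.0557). By limma's F-test over the 4 groups, ins-12 was the only peptide gene past the threshold (adjusted p = 0.0427), where 1.34% of all tested probe sets passed, and 58 peptide genes (of 148) had an unadjusted p under 0.05, as did 19.1% of all tested probe sets.

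The number of peptide genes past the threshold depended on single arrays. Shares of all tested probe sets with an array left out are not given here. For the methyl ester it fell from 4 to 0 without either control array, any tryptophan-betaxanthin array, the first methyl ester array or the third methyl ester array, to 2 without the first or second benzyl ester array, and it was 14 without the second methyl ester array. For the benzyl ester it fell from 8 to 0 without either control array, the first or second tryptophan-betaxanthin array or the second benzyl ester array, to 1 without the third tryptophan-betaxanthin array, to 3 without the first methyl or the third benzyl ester array and to 4 without the first benzyl ester array, and it was 20 without the third methyl ester array. The F-test count of 1 ranged from 0 to 12, with 12 without the second methyl ester array and 5 without the third methyl ester array. Every such fit kept the sign of the named differences, but leaving out an array of another group cannot change a difference. Nor can leaving out 1 array turn the sign where the groups compared do not overlap. With the trial number as a block, a pairing that the arrays of tryptophan-betaxanthin and the methyl ester met, the methyl ester count was 38 (37 higher and 1 lower), with all 4 genes among them, and 11.1% of all tested probe sets passed in that fit (6.02% higher and 5.05% lower). The excess of higher over lower genes at an unadjusted p under 0.05 did not turn in any of these fits.

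Against the control, no peptide gene passed with any compound. The tested backgrounds were low, at 0.00374% for tryptophan-betaxanthin, 0.258% for the methyl ester (0.224% higher, 0.0336% lower) and 0.564% for the benzyl ester (0.452% higher, 0.112% lower), and the 2 control arrays limit the comparison. For the benzyl ester, 9 peptide genes passed without the third methyl ester array and 1 without the second methyl ester array. The share of all tested probe sets in those fits is not given here. At an unadjusted p under 0.05, 1 peptide gene was higher and 13 were lower with tryptophan-betaxanthin (2.52% and 3.52% of all tested probe sets), 46 and 7 with the methyl ester (8.25% and 8.13%), and 25 and 6 with the benzyl ester (8.21% and 7.07%). The medians were -0.06, 0.17 and 0.16, beside 0.01 over all tested probe sets in each. These comparisons share the control arrays. In 28 genes (18.9%, against 4.38% of all tested) all 6 ester arrays lay above all control and parent arrays, among them flp-22, flp-16, flp-7, flp-13, flp-24, nlp-9, nlp-11, nlp-21 and ins-18. Only ins-37 lay below all of them in all 6 (3.92% of all tested).

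Single genes set the compounds apart from the control by sizes that did not pass. The gene ins-35 had the widest range of all 148. It read 2.87 and 2.45 in the controls, 4.56, 4.26 and 4.49 with tryptophan-betaxanthin, 3.35, 4.42 and 5.81 with the methyl ester and 4.64, 5.87 and 4.76 in the benzyl ester arrays. All 9 compound arrays lay above both controls, by 1.77, 1.86 and 2.43 in the means (limma adjusted p = 0.715, 0.213 and 0.122). The gene ins-8 lay the other way, at 2.48 and 2.83 in the controls and between 1.30 and 2.00 in the 9 compound arrays, with differences of -1.07, -0.89 and -0.97 (limma adjusted p = 0.248, 0.148 and 0.0926). Its mean signal, 1.85, lay below the median of all tested probe sets and may be close to background. The neighbour of ins-8, ins-7, encodes an agonist of DAF-2 that is known for a feedback between tissues. It read 6.43 and 6.40 in the controls and 4.86 to 5.98 in the compound arrays, with differences of -0.66, -1.003 and -0.88 (limma adjusted p = 0.837, 0.195 and 0.225). The flp gene with the smallest p was flp-20, 0.65 above the control with the benzyl ester (limma adjusted p = 0.0797), and the nlp gene nlp-89 was 1.09 above it with the methyl ester (limma adjusted p = 0.133).

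**Figure D4:**
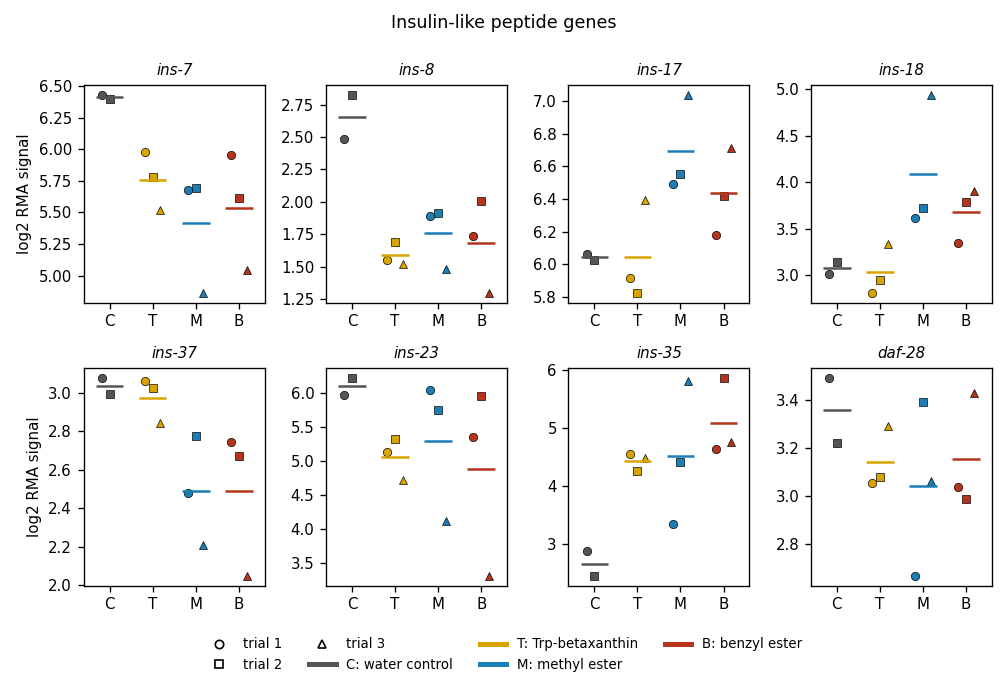
Log2 RMA signal per array (vertical axes, a separate scale in each panel) of 8 insulin-like genes, with C (control), T (tryptophan-betaxanthin), M (methyl ester) and B (benzyl ester), bars at group means and symbols for trials. In ins-7 and ins-8 all compound arrays lie below both controls, in ins-35 above them, and the third-trial ester arrays of ins-23 are its lowest.

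The methyl and the benzyl ester did not differ past the threshold in any peptide gene (0.149% of all tested probe sets passed, 0.0374% higher and 0.112% lower with the methyl ester). At an unadjusted p under 0.05, 2 were higher with the methyl ester and 6 lower, beside 1.9% and 2.43% of all, and the median difference was 0.04. The largest of the named differences was in nlp-34, where the methyl ester was 0.90 above the benzyl ester (95% interval 0.27 to 1.53, limma adjusted p = 0.791). For flp-6 the difference was 0.00 (95% interval -0.27 to 0.27) and for ins-12 -0.29 (95% interval -0.75 to 0.17). The gene flp-1, whose loss makes animals move hyperactively, was 0.60 lower with the methyl ester (95% interval of the difference -1.09 to -0.11, limma adjusted p = 1). A missed threshold does not show that the esters act alike.

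The third trial was compared with the first and second within the compounds, and this comparison had the most peptide genes past the threshold. The third-trial ester arrays stood apart in the tissue and stage lists as well. The summed linear signal of the methyl and the benzyl ester was 551.8 and 566.2 for oocyte genes in the third trial and 749.3 to 1417 in the others, 2995 and 2743 for moulting genes against 1252 to 1628, and 1528 and 1002 for vitellogenins, the yolk proteins, against 3513 to 4165. The part of these differences in the third-trial results was not tested. By a limma fit with group means and a third-trial term, 23 peptide genes were higher and 8 lower in the third trial, 31 in all (20.9%). The background was 18.6% of all tested probe sets, with 8.4% higher and 10.2% lower, so the count in all lay near it, with more genes higher than lower. This background was not matched for signal. At an unadjusted p under 0.05, 38 peptide genes were higher and 15 lower (14.8% and 15.5% of all tested). The gene nlp-43 read 6.70, 6.72 and 7.27 in trials 1, 2 and 3 with tryptophan-betaxanthin, 7.43, 7.26 and 8.27 with the methyl ester and 7.13, 7.18 and 8.05 in the benzyl ester arrays. Its shift was 0.79 (standard error 0.09, limma adjusted p = 0.00206). The genes nlp-8 and nlp-14, which are expressed in the ALA neuron and act in sleep after stress, rose by 0.84 and 1.02 (limma adjusted p = 0.00424 and 0.00479), nlp-12, a cholecystokinin-like peptide of the DVA neuron, rose by 0.57 (limma adjusted p = 0.00449) and ins-17 rose by 0.48 (limma adjusted p = 0.00452).

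Several genes were lower in the third trial. The gene ins-23 fell by 1.55 (standard error 0.28, limma adjusted p = 0.00583), from 5.14 and 5.32 to 4.72 with tryptophan-betaxanthin, from 6.04 and 5.75 to 4.11 with the methyl ester and from 5.36 and 5.97 to 3.31 with the benzyl ester. The genes nlp-5, nlp-4 and ins-7 fell by 0.99, 0.74 and 0.64 (limma adjusted p = 0.00615, 0.00496 and 0.00496). In 3 genes (2.03%) the shift itself differed between the esters and the parent, near the 1.74% of all tested probe sets where it did (0.848% higher, 0.893% lower). It was 0.33, 1.57 and 1.25 for nlp-81 with tryptophan-betaxanthin, the methyl ester and the benzyl ester, a difference of 1.08 between the mean of the esters and the parent (standard error 0.18, limma adjusted p = 0.0291). For nlp-14 the difference was 0.999 (standard error 0.20, limma adjusted p = 0.0456) and for ins-23 -1.56 (standard error 0.30, limma adjusted p = 0.0441). Each shift rests on a single third-trial array per compound, and with the trial number as a block 0 genes passed this last test. The third-trial count was 11 without the third methyl ester array and 16 without the third benzyl ester array, and between 24 and 39 without any other. The plot of shifts by compound shows the genes with the smallest p, 6 of them higher and 6 lower.

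**Figure D5:**
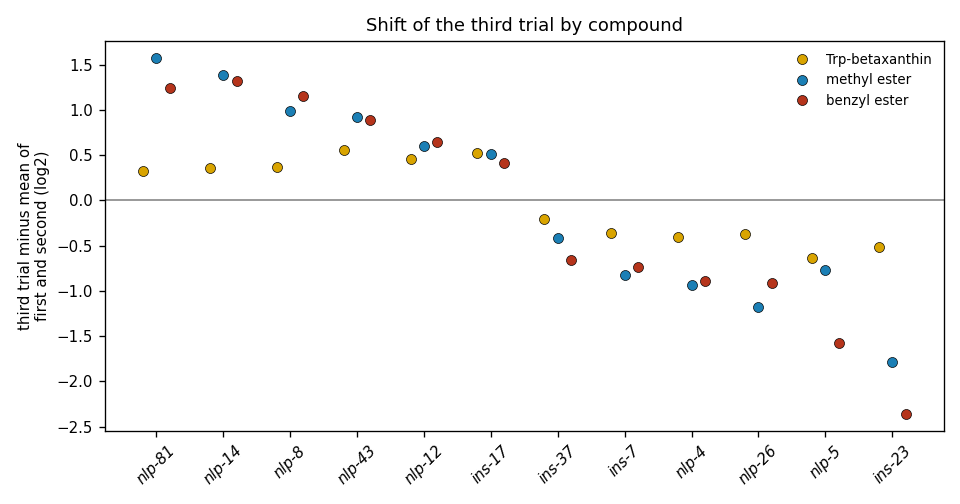
Third-trial signal minus the mean of the first and second trials (log2, vertical axis) for 12 peptide genes and each compound. Points are tryptophan-betaxanthin (yellow), the methyl ester (blue) and the benzyl ester (red), and for nlp-81, nlp-14 and ins-23 the ester points lie farther from 0 than the parent point.

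The genes that make, pack and receive the peptides were also measured. Of 9 genes of precursor processing, 0 passed in any comparison with the control or between compounds, and 6 rose in the third trial and 0 fell, where 8.4% of all tested probe sets were higher and 10.2% lower: egl-3, the main proprotein convertase, by 0.68 (limma adjusted p = 0.0148), egl-21, the carboxypeptidase that trims the cut peptides, by 0.72 (limma adjusted p = 0.00748), and pghm-1, which hydroxylates the C terminus before amidation, by 0.82 (limma adjusted p = 0.0142), with sbt-1, kpc-1 and aex-5. Of 22 genes of dense-core vesicle biogenesis and release, 7 (31.8%) rose in the third trial and 0 fell, among them ida-1 by 0.59 (limma adjusted p = 0.00473). This shift is a mean over the compounds. With tryptophan-betaxanthin the mean log2 signal of the 22 genes was 4.86, 4.97 and 4.94 in trials 1, 2 and 3, which is no third-trial rise. It was 5.03, 4.97 and 5.34 with the methyl ester and 4.96, 4.94 and 5.36 with the benzyl ester. The gene cccp-1 rose by 0.90 with the benzyl ester against the parent (limma adjusted p = 0.0352). Of 96 neuropeptide receptor genes, 3 rose with the benzyl ester against the parent (3.12%, near the 2.1% of all tested probe sets that were higher). They were npr-17, dmsr-5 and trhr-1, by 0.94, 0.58 and 0.61 (limma adjusted p = 0.0382, 0.0419 and 0.0357). In the third trial 10 receptor genes (10.4%) rose and 2 (2.08%) fell, so the share that rose was near the 8.4% of all tested probe sets.

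In the insulin receptor pathway, 0 of 18 genes passed in any comparison with the control or between compounds. At an unadjusted p under 0.05, 1 was higher and 5 lower with the methyl ester against the parent, and 2 and 4 with the benzyl ester, beside 10.3% higher and 9.91% lower and 11.2% higher and 8.92% lower of all tested probe sets. The receptor gene daf-2 rose by 0.50 in the third trial (limma adjusted p = 0.0119), as did sgk-1 and ftt-2. Of all tested probe sets, 8.4% were higher and 10.2% lower in that trial. The mean log2 signal of the 18 genes was 4.579, 4.689 and 4.594 in trials 1, 2 and 3 with the parent, which is no third-trial rise. It was 4.405, 4.498 and 4.523 with the methyl ester and 4.551, 4.327 and 4.583 with the benzyl ester. Among the 4 antagonist genes (ins-1, ins-17, ins-18 and ins-37 in the list used here), 3 were higher and 1 lower with the methyl ester against the parent at an unadjusted p under 0.05, and 0 passed the adjusted threshold. ins-18 read 2.81, 2.95 and 3.34 with the parent and 3.62, 3.72 and 4.94 with the methyl ester. Of the 7 agonist genes, 0 were higher and 0 lower at that threshold in either ester comparison. Among the tissue markers, the summed linear signal of 16 neuron markers was 1152 to 1249 in the controls, 1038 to 1071 with tryptophan-betaxanthin, 1272 to 1542 with the methyl ester and 1331 to 1446 with the benzyl ester. Bright genes carry this sum, and the mean log2 signal of the same markers overlapped between the benzyl ester and the controls and parent, at 3.94 to 3.97 in the controls, 3.87 to 3.96 with the parent, 4.05 to 4.37 after methyl ester and 3.96 to 4.26 after benzyl ester treatment. In trials 1, 2 and 3 this mean was 3.90, 3.87 and 3.96 with the parent and 4.10, 4.05 and 4.37 with the methyl ester. It was 3.96, 3.97 and 4.26 with the benzyl ester, which exceeded both controls clearly only in the third trial. The median difference of the neuron markers from the parent was 0.34 with the methyl ester (5 higher and 1 lower at an unadjusted p under 0.05) and 0.18 with the benzyl ester (4 higher and 0 lower), beside 0.00 and -0.01 over all tested probe sets. The medians were 0.19 and 0.08 for 13 hypodermis markers and 0.06 and 0.07 for 13 intestine markers. The part of these differences in the results was not tested.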

How the data were processed

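Deposited log2 signals of 11 C. elegans Gene 1.1 ST arrays were used as given. The authors made these log2 values with RMA in the Affymetrix Expression Console, per the submitters' processing notes, while their methods name the Transcriptome Analysis Console. Software versions were not given in the sources used here. RMA gives every array a like distribution, so a change shared by most genes would not show. Of 29317 probe sets, 2556 without a gene symbol were not tested. Of the 26761 tested, 480 list several symbols, and 1 such probe set with an nlp symbol was left out of the members. All 148 members matched RefSeq gene identifiers.

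Group means of the 4 groups were fitted with limma 3.58.1 (R 4.3.3), and p-values were adjusted over all tested probe sets at 0.05. For the third trial, a term for that trial was added. Trial numbers came from the labels. Correlations of same-trial deviations from group means were 0.214, 0.291 and 0.453 between the parent and the methyl ester and 0.501, 0.235 and 0.742 between the esters, over 0.1 in each pair, but not with the control (-0.0467 to 0.134) or between tryptophan-betaxanthin and the benzyl ester (0.272, -0.0609 and 0.472). Exact permutation of 3 arrays against 2 or 3 cannot give a p below 0.1, so no such test was used.

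Members and lists were chosen with earlier results of these data known. Genes were named by p within comparisons, by threshold, by signal in each family or from a fixed set. The others (nlp-31, nlp-27, and the genes listed for array order) were named after their values were seen. Alternatives were the trial block, only the groups compared, an intensity trend, array weights, other scalings, filters and thresholds, and arrays left out.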

Additional observations from a re-analysis of the deposited data

Results flagged for a closer look

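The third-trial shift of 3 peptide genes differed between the esters and tryptophan-betaxanthin by a test of that difference itself in limma. The ester shift less that of the parent was -1.56 in ins-23, 1.08 in nlp-81 and 0.999 in nlp-14. These are 2.03% of the peptide genes, near the 1.74% of all tested probe sets, and in the fit with the trial block 0 passed. When an array was left out, in the 8 fits that still allowed the test, nlp-81 passed in 4 and ins-23 and nlp-14 in 2 each, and the differences kept their signs.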

How the results depend on the processing

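Counts of peptide genes past the threshold changed with the processing. Over 1728 values of 82 gene results, 1498 kept their side of the threshold, 165 lost it, 65 gained it and 0 reversed in sign. Many of these values could not reverse. The F-test has no sign. Other thresholds, filters, an intensity trend or fits of only the groups compared leave a difference of group means unchanged. Leaving out an array of a group outside a comparison also leaves its difference unchanged. With the trial number as a replicate block, 2 genes (both lower) passed for the methyl and 1 for the benzyl ester against the control, 38 and 26 against tryptophan-betaxanthin, 25 in the F-test and 0 in the test of the ester shifts. The block changed the count of no other comparison by over 1.5 times. When each fit held only the 2 groups it compared, 7 passed for tryptophan-betaxanthin against the control and 0 for the methyl ester against the parent. With array weights the counts against the control were 2, 17 and 15 for tryptophan-betaxanthin, the methyl and the benzyl ester, 20 and 18 for the esters against the parent and 30 in the F-test. An intensity trend gave 1 and 3 for the esters against the parent, cyclic loess 2 and 4 (0 in the F-test), and median centring 2 and 5. Over all probe sets the test of the shifts gave 1. At an adjusted p of 0.1 the counts were 3 for the benzyl ester against the control, 17 and 17 for the esters against the parent, 15 in the F-test and 5 for the shifts. Without the third trial they were 2, 4 and 13 against the control, 14 and 23 for the esters against the parent and 18 in the F-test. The share of all tested probe sets is given only for the methyl ester against the parent with the block, 11.1%. The other counts therefore cannot be told from a fit that passes more genes of every kind.

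Leaving out each array in turn gave 0 to 9 for the benzyl ester against the control (9 without the third methyl ester array), 0 to 14 and 0 to 20 for the esters against the parent, 0 to 12 in the F-test, 11 to 39 for the third trial and 0 to 6 for the shifts. It gave 0 to 0 for tryptophan-betaxanthin and the methyl ester against the control and for the methyl against the benzyl ester. A group left with 1 array is taken to vary like the others. Shares of all tested probe sets in these leave-out fits are not given here, so their counts have no background. The causes were not tested. The number of arrays, with 2 controls and no third-trial control here, and dim probe sets limit these values.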

Other observations

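A probe set shared by nlp-78 and C16D2.4, left out because its signal cannot be assigned to either gene, read 3.34 and 3.37 in the controls, 2.51, 2.42 and 2.38 with tryptophan-betaxanthin, 3.32, 3.24 and 4.81 with the methyl ester and 3.23, 3.53 and 3.14 with the benzyl ester.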
